A study of Mus musculus with 12 samples.

Results

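The 41 genes described here encode the machinery that copies DNA and the factors that carry a cell from G1 into S phase. They were taken by name from a list of symbols that was chosen with earlier results of these data known. They were found through their Ensembl identifiers among the 31054 identifiers of the count tables. All 41 were measured, and all 41 were among the 13141 genes that passed a filter on low counts and were tested. The lowest count of any of them in any library was 22 reads, for Tk1 in a library of TolDC with LPS. The libraries came from dendritic cells, which present antigens to T cells, grown from marrow of C57BL6 animals of wild-type (WT) genotype and enriched on day 7 for live cells carrying CD11c. BMDC were the cells without treatment, and TolDC were tolerogenic dendritic cells, made with vitamin D and interleukin 10 (IL-10). Both kinds were sequenced without and with lipopolysaccharide (LPS), an outer membrane component of bacteria sensed by Toll-like receptor 4, which gave 4 groups of 3 libraries: BMDC, BMDC with LPS, TolDC and TolDC with LPS. The sources used here do not give the doses, how long LPS was present, or whether the libraries of a group came from separate mice or cultures, so p-values measure only the spread between these libraries, which may be technical.

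In G1 the origin recognition complex, helped by Cdc6 and Cdt1, loads the ring-shaped Mcm2 to Mcm7 helicase onto DNA. Cyclin E and its kinase then release E2F transcription factors from pocket proteins of the retinoblastoma family, and E2F raises the transcription of many replication genes. At each origin Cdc45 and the GINS complex turn the ring into a moving helicase, behind which polymerases, the PCNA clamp and DNA ligase copy the strands, while ribonucleotide reductase and its partners supply deoxynucleotides and chromatin factors rebuild nucleosomes and DNA methylation. In bone marrow cultures dendritic cells arise from dividing precursors, and the RNA of these genes is mostly found in cells that are preparing for or passing through S phase.

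The libraries held 21844405 to 41764975 reads assigned to genes, so that 3 reads corresponded to 0.0718 to 0.137 CPM. CPM are the reads of a gene per 1000000 assigned reads, scaled here with TMM factors, which correct for the composition of a library. Of the dendritic cell markers, Itgax, which encodes the CD11c used for the enrichment, was at 1251 to 2253 CPM. Flt3, a receptor of dendritic cell precursors, was at 0.0496 to 1.75 CPM and Dpp4 at 0.238 to 4.69 CPM. Without LPS, Zbtb46 (29.4 to 33.7 CPM in BMDC, 14.5 to 18.6 CPM in TolDC) and Batf3 (119 to 129 and 47.99 to 51.15 CPM) were lower in TolDC. H2-Ab1, H2-Aa and H2-Eb1 were higher there. The summed level of 13 granulocyte markers was 394 to 827 CPM in the 4 libraries numbered 1 and 1110 to 2599 CPM in the other 8. The summed level of 10 markers of haematopoietic progenitors, cells that divide, was 129 to 136 CPM in TolDC, 66.9 to 82.9 CPM in TolDC with LPS, 28.8 to 37.1 CPM in BMDC and 21.5 to 39.4 CPM in BMDC with LPS. The higher sum of TolDC without LPS came mainly from Cd34 (13.2 to 14.5 CPM in BMDC, 65.3 to 70.2 CPM in TolDC), Kit (1.72 to 1.94 and 21.3 to 23.6 CPM) and Spink2 (2.43 to 2.67 and 19.4 to 20.9 CPM). Gata2 (2.15 to 6.76 and 6.82 to 17.1 CPM) and the scarce Hoxa9 were higher too. Other genes of the list did not share this pattern: Flt3 was lower in TolDC (0.163 to 0.317 CPM, against 0.635 to 0.907 CPM in BMDC), and Myb, Sox4 and Meis1 overlapped. Kit and Gata2 are also markers of mast cells and basophils. The 11 markers of those cells summed to 31.9 to 116.7 CPM in BMDC and 77.6 to 277.5 CPM in TolDC. The summed level of 11 macrophage and monocyte markers was 6541 to 6675 CPM in BMDC and 1494 to 2162 CPM in BMDC with LPS, against 2735 to 2814 CPM in TolDC and 2272 to 2952 CPM in TolDC with LPS. Most of the fall in BMDC came from Lyz2 (4227 to 4338 CPM, with LPS 335 to 542 CPM) and Ccr2 (1000 to 1092 and 45.43 to 47.85 CPM). Adgre1, Cd68 and Ly6c2 instead rose with LPS in both kinds of cell. Adgre1 was at 31.3 to 40.8 CPM in BMDC and 222 to 327 CPM in BMDC with LPS. Of erythroid markers, Slc4a1 and Car1 had no reads in any library. The part of other cells in the results was not tested, and because RNA was measured in bulk, fewer dividing cells and less RNA of these genes per cell cannot be told apart.

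With LPS most of these genes fell, and most fell further in TolDC than in BMDC. In BMDC, 33 of the 41 were lower with LPS, 6 were higher and 2 did not pass the test, where 36.4% of all tested genes were lower and 36.7% higher. In TolDC, 40 of the 41 were lower, none was higher and E2f1 did not pass, where 35.9% of all tested genes were lower and 35.4% higher. The median log2 change of the 41 genes was -0.69 in BMDC and -1.43 in TolDC, while the median of all tested genes lay close to zero in both. At least 2-fold falls were seen for 13 of them in BMDC, against 11.0% of all genes, and for 29 in TolDC, against 10.6%. The 3 libraries with LPS all lay below the 3 without it for 34 of the 41 genes in BMDC (37.4% of all tested genes) and for 40 in TolDC (38.0%). The 32 that were lower in both kinds of cell compare with 26.6% of all tested genes. Ccne1, Ccne2, Orc1, Pola2, Tyms and Uhrf1 were higher in BMDC and lower in TolDC, 6 genes where 2.76% of all tested genes had that pattern. Calls are from edgeR's quasi-likelihood test at a Benjamini-Hochberg adjusted p below 0.05 over all tested genes, and changes are log2 values ± SE with 3 libraries in each group.

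The difference between the LPS responses was tested as a contrast of its own. It was negative, meaning a lower response in TolDC, for 31 of the 41 genes (24.0% of all tested genes), positive for Dut and E2f1 (20.4%), and did not pass for 8. It was at least 2-fold lower for 13 of them (4.62%). Summed over the 41 genes, the level was 974, 1063 and 1080.0 CPM in the 3 BMDC libraries and 670.4, 731 and 718 CPM in BMDC with LPS. It was 1312, 1317 and 1281 CPM in TolDC and 522, 541 and 534 CPM in TolDC with LPS. The 4 groups did not overlap in this sum, and TolDC stood highest without LPS and lowest with it. The response plot places most genes further to the left for TolDC than for BMDC.

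**Figure D1:**
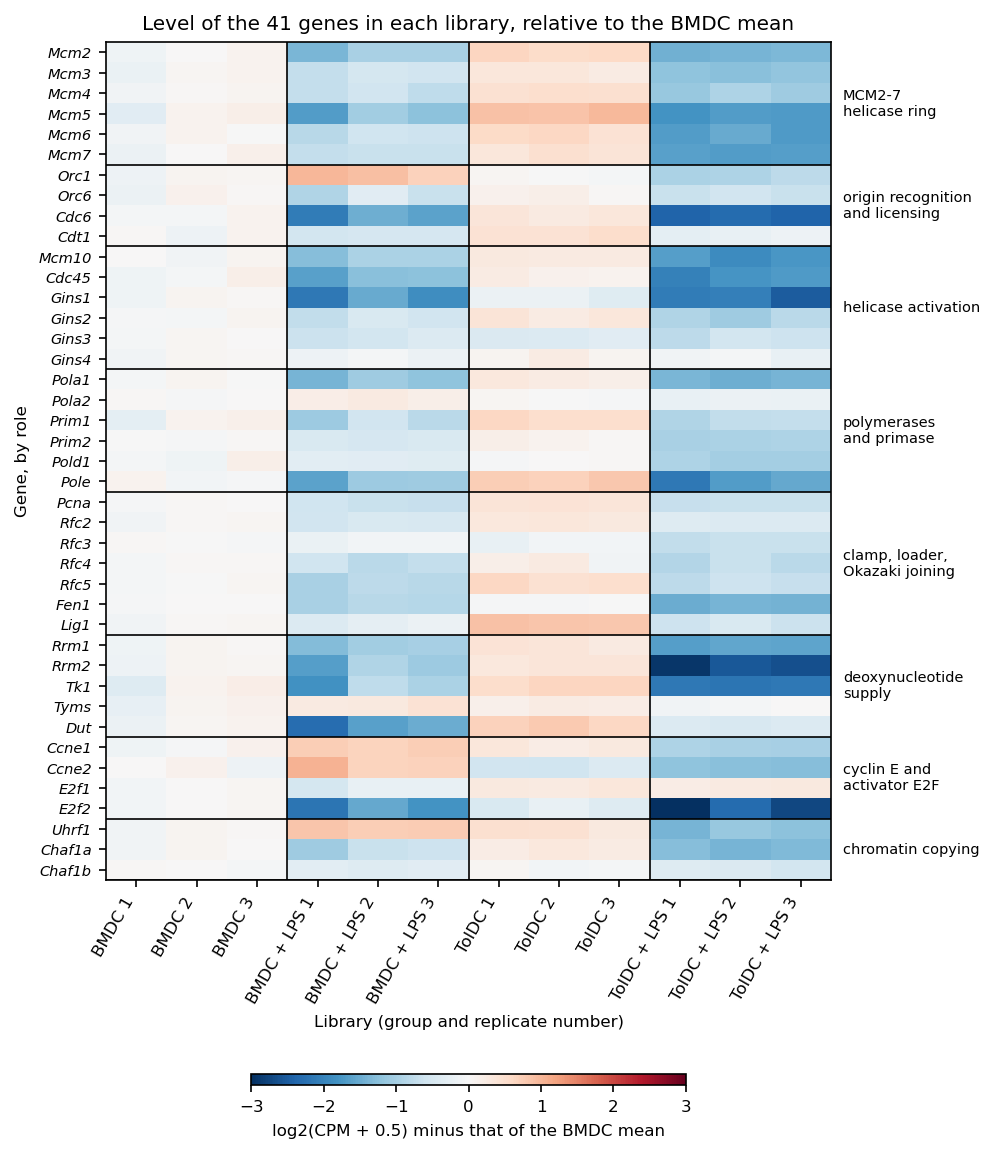
Level of each of the 41 genes (rows, by role) in each of the 12 libraries (columns), as log2(CPM + 0.5) minus that of the BMDC mean, with blue for lower and red for higher and shades limited to the range of the colour bar. Most rows are blue in both groups with LPS and pale red in TolDC, while Orc1, Ccne1, Ccne2 and Uhrf1 are red in BMDC with LPS and blue in TolDC with LPS.

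**Figure D2:**
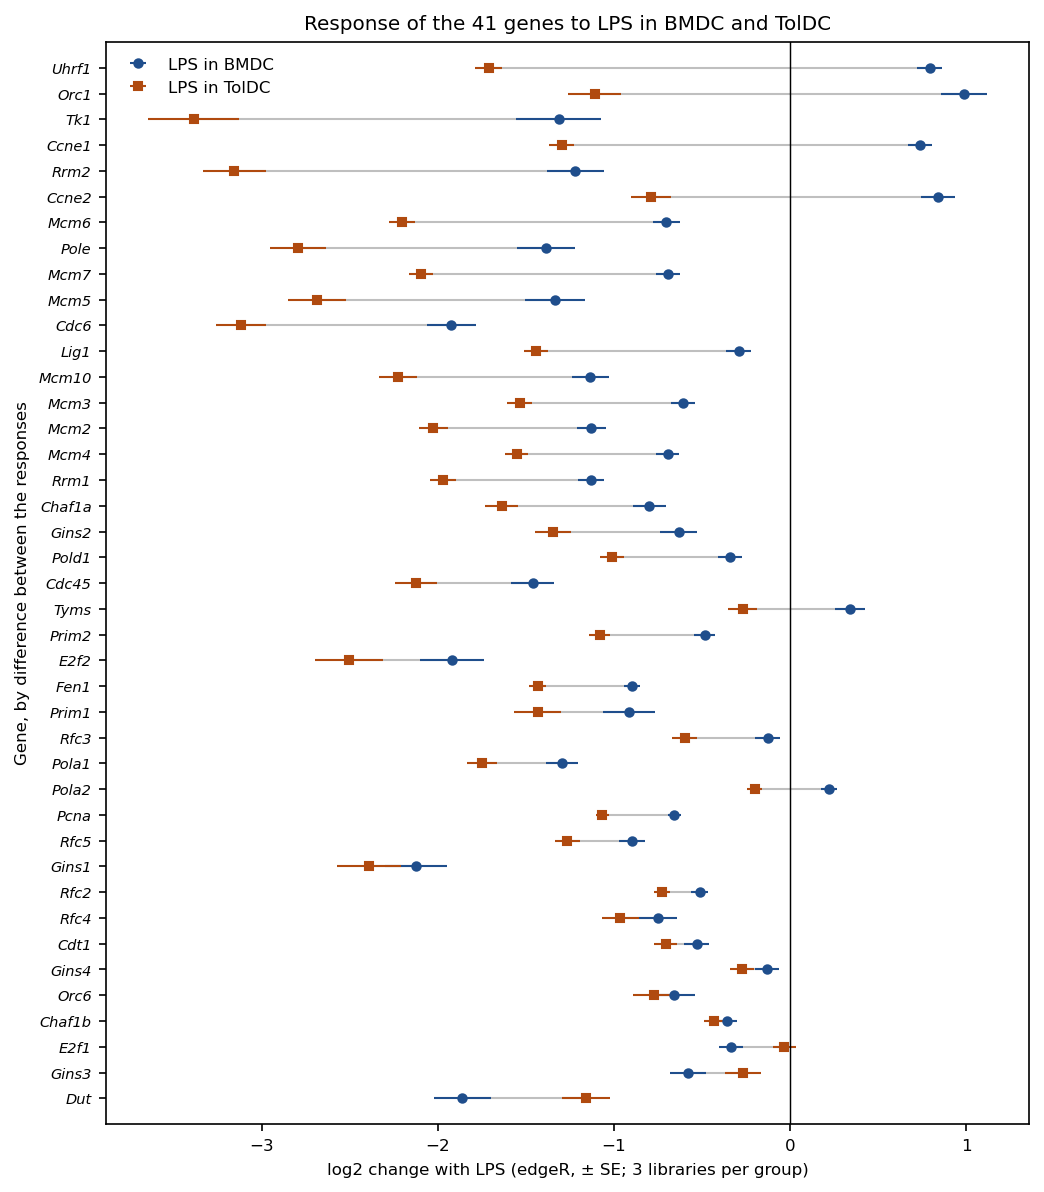
Log2 change with LPS (x axis, edgeR ± SE, 3 libraries per group) of the 41 genes (y axis, ordered by the difference between the responses) in BMDC (circles) and TolDC (squares). The squares lie to the left of the circles for all genes but E2f1, Gins3 and Dut, and 6 genes have the circle right of zero and the square left of it.

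TolDC had more RNA of most of these genes than BMDC without LPS, and less with it. Without LPS 25 of the 41 genes were higher in TolDC (32.0% of all tested genes), Ccne2 and Gins3 lower (30.4%) and 14 did not pass. The median difference was 0.31, and none of the 41 genes was 2-fold lower or higher. Of all tested genes, 8.03% were 2-fold lower, and the share 2-fold higher was not computed. The count of lower genes was 4 without the 4 libraries numbered 1. With LPS 27 were lower (33.7%), Cdt1, Dut and E2f1 higher (34.3%) and 11 did not pass, with a median of -0.49, and 6 were at least 2-fold lower (9.50%). The count of higher genes was 5 without BMDC with LPS replicate 2. Higher in TolDC without LPS and lower with it were 16 of the 41, where 3.83% of all tested genes had that pattern. They were Mcm2, Mcm3, Mcm4, Mcm6, Mcm7, Mcm10, Cdc6, Gins2, Pole, Lig1, Rrm1, Tk1, Tyms, Ccne1, Uhrf1 and Chaf1a. Leaving out a single library could cost Tyms, Chaf1a, Cdc6 and Mcm10 the call without LPS, and Mcm2 the call with it. With unstranded counts Tk1 was not called higher without LPS. The summed progenitor markers given above, mainly Cd34, Kit and Spink2, were higher in TolDC than in BMDC in both states, and their part in these counts was not tested.

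Sequence shared by the promoters was looked for next, since E2F factors bind replication genes at short GC-rich words. RefSeq windows (GRCm38.p6) from 250 bases before to 50 bases after a transcription start were at hand for 33 of the 41 genes, in 39 windows. There was none for Rfc2, Gins1, Ccne2, Prim2, Pole, Gins4, Mcm4 and Gins2. The words searched were TTTCCCGC, TTTGGCGC, TTTCGCGC and TTTGCCGC, on both strands. At least 1 of them was present for 14 of the 33 genes (42.4%), against 2.60% of 27025 genes with such windows and 4.53% of the 10205 tested genes among these. Per window of the same length the shares were 35.9% for the 41 genes' windows and 2.26% for all 32851 windows. In a list of 20 genes of mitosis, 17 had a window and 1 of them (5.88%) held a word. The word CCAAT, on either strand, was in the windows of 19 of the 33 genes (57.6%), of 41.1% of all genes and of 94.1% of the mitosis genes. A match describes the letters of a window and is not evidence of binding.

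The stretches below lie directly upstream of RefSeq starts and carry the word. They belong to genes that fell with LPS in both kinds of cell (Mcm5, Mcm6, Cdc6) and to genes that rose in BMDC and fell in TolDC (Orc1, Uhrf1). In GENCODE M21, Cdc6, Uhrf1 and Orc1 begin further upstream, at 98907801, 56303321 and 108579423. The words shown for these genes thus lie inside the annotated genes. The window of the first RefSeq start of Uhrf1 held no word. Each stretch reads 5′ to 3′ on the strand of its gene, with E2F words of either strand in capitals. Bases annotated as untranslated region of any gene in GENCODE M21 are left out.
Mcm5, chr8:75109259-75109508, plus strand: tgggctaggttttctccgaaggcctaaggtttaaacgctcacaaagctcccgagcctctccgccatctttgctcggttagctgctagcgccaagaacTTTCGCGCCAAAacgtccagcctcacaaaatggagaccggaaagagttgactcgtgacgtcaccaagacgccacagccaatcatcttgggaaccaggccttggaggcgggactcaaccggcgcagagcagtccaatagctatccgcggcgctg
Mcm6, chr1:128359706-128359955, minus strand: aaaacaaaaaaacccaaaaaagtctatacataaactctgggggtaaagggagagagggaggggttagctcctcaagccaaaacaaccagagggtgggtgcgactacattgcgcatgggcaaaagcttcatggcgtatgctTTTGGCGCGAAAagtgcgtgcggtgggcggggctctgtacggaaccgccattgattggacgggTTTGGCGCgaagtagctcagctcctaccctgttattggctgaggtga
Cdc6, chr11:98907982-98908150, plus strand: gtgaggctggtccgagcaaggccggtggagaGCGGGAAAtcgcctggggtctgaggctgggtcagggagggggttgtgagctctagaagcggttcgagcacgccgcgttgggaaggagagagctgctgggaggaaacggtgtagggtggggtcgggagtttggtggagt
Orc1, chr4:108579337-108579453, plus strand: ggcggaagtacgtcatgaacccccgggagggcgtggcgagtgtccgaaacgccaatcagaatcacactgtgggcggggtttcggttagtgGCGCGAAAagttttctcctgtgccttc
Uhrf1, chr17:56304063-56304312, plus strand, before the second of its RefSeq starts: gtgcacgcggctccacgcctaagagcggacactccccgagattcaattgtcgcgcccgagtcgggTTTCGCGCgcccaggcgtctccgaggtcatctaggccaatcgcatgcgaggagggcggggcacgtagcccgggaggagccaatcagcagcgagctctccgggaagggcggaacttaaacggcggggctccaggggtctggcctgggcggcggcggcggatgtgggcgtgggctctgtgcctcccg
In Mcm5 a word on the strand of the gene overlaps one on the other strand, TTTCGCGC at -153 and TTTGGCGC at -149 from the start, and Mcm6 has such a pair at -110 and -106 with a further TTTGGCGC at -47. The word was found in 11 of the 26 genes with a window that were lower with LPS in both kinds of cell, and in 2 of the 5 that were higher in BMDC and lower in TolDC. It was thus present in genes with either response.

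**Figure D3:**
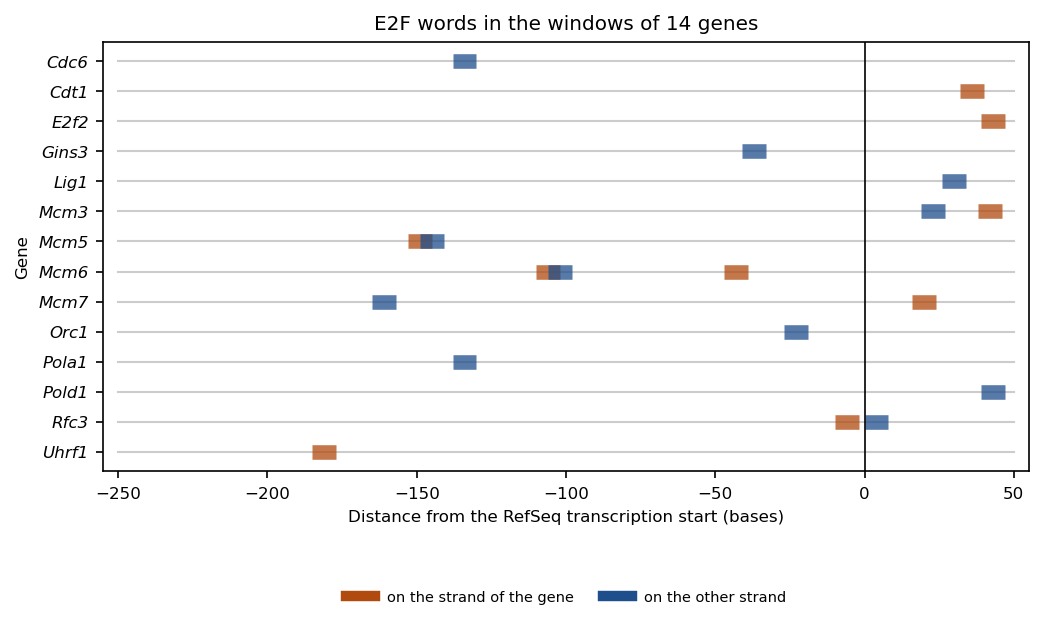
Position of E2F words (boxes; red on the strand of the gene, blue on the other strand) relative to the RefSeq transcription start (x axis, bases) in the windows of the 14 genes that hold one (y axis). The words begin between -185 and 39 bases from a start, and pairs overlap in Mcm5 and Mcm6.

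The MCM2-7 ring, which unwinds DNA ahead of the fork, fell in all 6 of its genes with LPS in both kinds of cell. Of all tested genes, 36.4% were lower with LPS in BMDC and 35.9% in TolDC. The changes ran from -1.33 (Mcm5) to -0.61 (Mcm3) in BMDC and from -2.68 (Mcm5) to -1.54 (Mcm3) in TolDC. Mcm5, at chr8:75109569-75128439 in GRCm38, was at 23.1, 31.7 and 33.1 CPM in BMDC and 8.90, 14.1 and 12.3 CPM in BMDC with LPS. It was at 54.3, 53.3 and 57.7 CPM in TolDC and 8.10, 8.88 and 8.72 CPM in TolDC with LPS. No library with LPS reached a library without it, and the 3 TolDC libraries were above all 9 others. Mcm5 fell by 1.33 ± 0.17 on the log2 scale in BMDC (adjusted p = 4.76e-05) and by 2.68 ± 0.17 in TolDC (1.54e-07), with a difference of -1.35 ± 0.24 (0.00123). Against BMDC with LPS, TolDC with LPS differed by -0.44 ± 0.19, which did not pass (adjusted p = 0.0626), but did with the replicate number as a block (-0.44, 0.0182).

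Mcm3, another subunit of the ring, was at 45.4, 53.9 and 56.2 CPM in BMDC, 31.6, 35.9 and 34.5 CPM in BMDC with LPS, 65.4, 65.9 and 61.4 CPM in TolDC and 22.2, 21.4 and 22.7 CPM in TolDC with LPS. The 4 groups did not overlap. Without LPS all 6 ring genes were higher in TolDC than in BMDC (32.0% of all tested genes), from 0.31 (Mcm3) to 0.91 (Mcm5). With LPS 5 of them were lower in TolDC (33.7% of all tested genes), from -0.99 (Mcm7) to -0.29 (Mcm2). The Mcm2 call was lost without BMDC with LPS replicate 3 (edgeR adjusted p = 0.0516). Per kilobase of transcript the 6 genes stood within a 1.97-fold range in BMDC, 1.83-fold in TolDC, 3.23-fold in BMDC with LPS and 2.88-fold in TolDC with LPS. Mcm5 was the lowest in both groups with LPS (3.47 and 2.53 CPM per kb) and Mcm3 the highest (11.2 and 7.30 CPM per kb). The RNA levels of the 6 subunits, which form a ring with one copy of each, were further apart with LPS than without it.

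**Figure D4:**
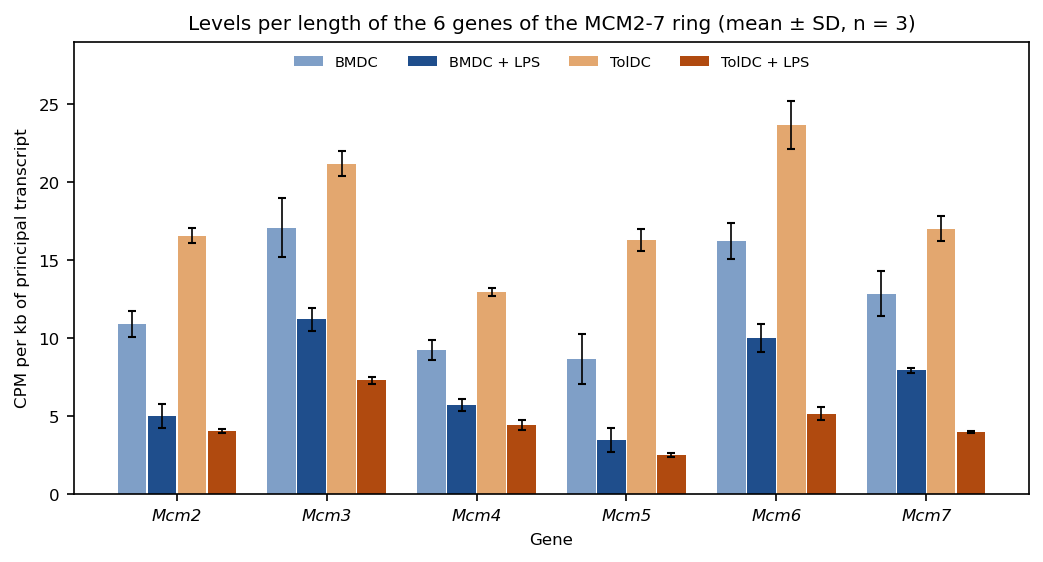
Level per length of the 6 ring genes (x axis) in the 4 groups, in CPM per kb of principal transcript (y axis; bars are means and error bars SD of 3 libraries). All 6 are highest in TolDC and lowest in TolDC with LPS, where Mcm5 stands at 2.53 and Mcm3 at 7.30 CPM per kb.

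Of the 4 genes that recognise and license origins, Cdc6, which helps load the ring, fell most. It was at 8.40, 8.39 and 9.47 CPM in BMDC, 1.65, 2.86 and 2.52 CPM in BMDC with LPS, 11.5, 10.7 and 11.2 CPM in TolDC and 1.24, 1.38 and 1.24 CPM in TolDC with LPS. The groups did not overlap, and the fall was 3.74-fold in BMDC and 8.68-fold in TolDC, as ratios of mean CPM (log2 -1.92 ± 0.14 and -3.12 ± 0.14, edgeR adjusted p = 3.49e-10 and 3.76e-13). The difference between the responses was -1.20 ± 0.21 (adjusted p = 0.000132). Its higher level in TolDC without LPS, 0.35 ± 0.11 (adjusted p = 0.0114), missed the threshold without BMDC replicate 2 (0.0504).

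Orc1, the largest subunit of the origin recognition complex, went the other way in BMDC. It was at 2.58, 3.08 and 3.06 CPM in BMDC, 6.33, 5.90 and 4.99 CPM in BMDC with LPS, 3.05, 2.90 and 2.78 CPM in TolDC and 1.27, 1.28 and 1.46 CPM in TolDC with LPS. BMDC and TolDC overlapped without LPS, and LPS moved them apart in opposite directions, by 0.99 ± 0.13 in BMDC (edgeR adjusted p = 1.47e-06) and -1.11 ± 0.15 in TolDC (2.42e-06). The difference of -2.10 ± 0.20 (adjusted p = 1.09e-07) was the second largest among the 41 genes. On the opposite strand lay 8.11% of the reads over Orc1 in BMDC with LPS and 20.9% in TolDC with LPS, where all genes together had 2.68%, and these were 37 and 36 reads over 3 libraries.

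Orc6, another subunit of that complex, fell in both kinds of cell, with 10.8, 13.6 and 12.7 CPM in BMDC, 6.33, 9.68 and 7.64 CPM in BMDC with LPS, 13.5, 13.96 and 12.6 CPM in TolDC and 7.61, 8.17 and 7.63 CPM in TolDC with LPS. Its changes were -0.66 ± 0.12 and -0.78 ± 0.12 (edgeR adjusted p = 8.4e-05 and 1.03e-05), and the difference of -0.11 ± 0.17 did not pass (0.616). Cdt1, which loads the ring together with Cdc6, was at 20.8, 18.4 and 21.9 CPM in BMDC, 13.7, 14.3 and 14.3 CPM in BMDC with LPS, 27.5, 27.8 and 29.6 CPM in TolDC and 16.5, 17.3 and 18.2 CPM in TolDC with LPS. It was one of 3 genes that were higher in TolDC with LPS than in BMDC with LPS (0.30 ± 0.07, adjusted p = 0.000864), besides being higher without it (0.48 ± 0.07, 4.36e-06). Cdt1 and Cdc6, partners in one loading step, therefore stood on opposite sides between the groups with LPS. Gm20388 is annotated over Cdt1 on the same strand, and its effect on the counts of Cdt1 was not tested.

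Among the 6 genes that activate the helicase, 5 were lower with LPS in BMDC (36.4% of all tested genes) and 6 in TolDC (35.9%). The largest fall was that of Gins1, a GINS subunit, with 6.42, 7.55 and 7.19 CPM in BMDC, 1.20, 2.17 and 1.57 CPM in BMDC with LPS, 6.15, 6.20 and 5.36 CPM in TolDC and 1.27, 1.31 and 0.842 CPM in TolDC with LPS. Its changes of -2.12 ± 0.18 in BMDC and -2.39 ± 0.18 in TolDC (edgeR adjusted p = 2.77e-09 and 7.19e-10) left a difference that did not pass (-0.27 ± 0.26, 0.444). Its lower level in TolDC with LPS, -0.53 ± 0.22 (adjusted p = 0.0414), was -0.29 (0.277) without BMDC with LPS replicate 2. That call was also lost without BMDC with LPS replicate 3 (0.0677) and without TolDC with LPS replicate 3 (-0.32, 0.223), and it was lost with limma-voom (0.082). Without the 4 libraries numbered 1 it was -0.84.

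Gins4, another GINS subunit, changed least among the 6 genes in BMDC. It was at 18.8, 21.3 and 20.9 CPM in BMDC, 18.2, 19.6 and 17.98 CPM in BMDC with LPS, 21.6, 24.1 and 21.6 CPM in TolDC and 18.7, 19.6 and 17.4 CPM in TolDC with LPS. Its change passed in TolDC (-0.28 ± 0.07, edgeR adjusted p = 0.00139) and not in BMDC (-0.13 ± 0.07, 0.0992; without BMDC replicate 1, -0.19, 0.027). Between TolDC and BMDC without LPS it differed by 0.14 ± 0.07, which passed only with the replicate block (adjusted p = 0.0831, and 0.0319 with the block). Gins3 was at 7.27, 7.88 and 7.58 CPM in BMDC, 4.68, 4.98 and 5.57 CPM in BMDC with LPS, 5.43, 5.55 and 5.85 CPM in TolDC and 4.21, 5.04 and 4.76 CPM in TolDC with LPS. With Ccne2 it was one of the 2 genes that were lower in TolDC than in BMDC without LPS (-0.43 ± 0.10, adjusted p = 0.000965). Its fall in TolDC, -0.27 ± 0.10 (adjusted p = 0.027), was lost without TolDC replicate 3 (0.091) and without TolDC with LPS replicate 1 (0.141) or 3 (0.0504), without the 4 libraries numbered 1 (0.0925) and with DESeq2 (0.084).

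The other 3 genes of this step fell in both kinds of cell. Cdc45, which joins the ring at the origin, and Mcm10, a factor needed for origin firing, fell with LPS by 1.46 ± 0.12 and 1.14 ± 0.10 in BMDC and by 2.12 ± 0.12 and 2.23 ± 0.11 in TolDC. Gins2 fell by 0.63 ± 0.11 and 1.35 ± 0.10. All 3 had a lower response in TolDC (24.0% of all tested genes), with edgeR adjusted p between 1.23e-05 (Mcm10) and 0.00464 (Cdc45). Without LPS, Mcm10 (0.29 ± 0.09, adjusted p = 0.0127; 0.0719 without BMDC replicate 2) and Gins2 (0.35 ± 0.10, 0.00448) were higher in TolDC. Of the reads over Gins2, 88.0% lay on the opposite strand, where Gse1 and Gm20388 are annotated, and the unstranded counts gave changes of -0.58 in BMDC and -1.29 in TolDC. Per kilobase the 4 GINS genes, whose products form a complex with one copy of each, spanned 7.53-fold in BMDC and 13.8-fold in TolDC with LPS, with Gins4 on top in every group. Gins2 was the lowest in both, and the span depends on the transcript lengths used, 3900 bases for Gins2 and 1087 to 2519 for the others. In CPM not divided by transcript length, Gins2 (7.82 CPM), Gins1 (7.05 CPM) and Gins3 (7.57 CPM) were close in BMDC.

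The polymerase genes split within one enzyme. Pola1, the catalytic subunit of polymerase alpha, fell with LPS by 1.30 ± 0.09 in BMDC and 1.75 ± 0.09 in TolDC, while Pola2, its regulatory subunit, rose by 0.22 ± 0.04 in BMDC (edgeR adjusted p = 0.00018) and fell by 0.20 ± 0.04 in TolDC (0.000465). Pola2 was at 37.6, 36.2 and 37.1 CPM in BMDC, 42.6, 44.5 and 42.1 CPM in BMDC with LPS, 38.3, 36.5 and 36.01 CPM in TolDC and 31.4, 32.5 and 32.3 CPM in TolDC with LPS. The groups with LPS did not overlap with any other group, although the changes were small. Per kilobase, Pola2 stood 5.73 times above Pola1 in BMDC, 16.3 times in BMDC with LPS, 4.82 times in TolDC and 14.1 times in TolDC with LPS.

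Pole, the catalytic subunit of the leading-strand polymerase epsilon, had the largest changes of the 6 genes. It was at 7.80, 6.71 and 7.06 CPM in BMDC, 2.04, 3.13 and 3.19 CPM in BMDC with LPS, 12.4, 11.9 and 13.04 CPM in TolDC and 1.24, 1.92 and 2.15 CPM in TolDC with LPS. The levels with LPS lay below all those without, and the changes were -1.39 ± 0.16 and -2.79 ± 0.16 (edgeR adjusted p = 4.94e-07 and 2.23e-11), with a difference of -1.41 ± 0.23 (9.84e-05). Prim1 and Prim2, the primase subunits, and Pold1, the catalytic subunit of the lagging-strand polymerase delta, fell by 0.91 ± 0.15, 0.49 ± 0.06 and 0.34 ± 0.07 in BMDC and by 1.43 ± 0.14, 1.08 ± 0.06 and 1.01 ± 0.07 in TolDC. All 6 genes had a lower response in TolDC (24.0% of all tested genes). For Prim1 the difference, -0.52 ± 0.20 (adjusted p = 0.045), did not pass in 13 of 19 alternatives, among them each removal of 1 TolDC or TolDC with LPS library and of BMDC replicate 1 or BMDC with LPS replicates 2 or 3 (up to 0.16). Without LPS, Pole (0.79 ± 0.14), Prim1 (0.58 ± 0.13) and Pola1 (0.25 ± 0.08) were higher in TolDC, the last not without BMDC replicate 3 (adjusted p = 0.0504) or without the 4 libraries numbered 1 (0.0521).

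Pcna, which encodes the sliding clamp, was at 118, 124 and 121 CPM in BMDC and 79.97, 75.6 and 75.1 CPM in BMDC with LPS. It was at 158, 161 and 155 CPM in TolDC and 75.1, 75.6 and 75.8 CPM in TolDC with LPS. The libraries without LPS lay above all those with it, and with LPS the 2 kinds of cell overlapped. Its changes were -0.66 ± 0.04 and -1.07 ± 0.04 (edgeR adjusted p = 1.01e-11 and 6.58e-15), and the level with LPS differed by -0.03 ± 0.04 between TolDC and BMDC (0.532). The difference between the responses was -0.41 ± 0.05 (adjusted p = 4.42e-06), and without LPS Pcna was higher in TolDC (0.38 ± 0.04, 3.54e-08). A pseudogene copy, Pcna-ps2, could take reads of Pcna, so its level is uncertain.

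Lig1, the ligase that seals Okazaki fragments, showed the largest rise in TolDC without LPS among the clamp, loader and joining genes. It was at 17.01, 18.8 and 18.9 CPM in BMDC, 13.7, 15.1 and 16.1 CPM in BMDC with LPS, 33.9, 32.7 and 32.3 CPM in TolDC and 11.8, 13.2 and 11.5 CPM in TolDC with LPS. Its fall was small in BMDC (-0.29 ± 0.07, edgeR adjusted p = 0.00133) and larger in TolDC (-1.44 ± 0.07, 8.45e-13), a difference of -1.15 ± 0.10 (3.68e-08). Fen1, the nuclease that trims the fragments, overlapped between TolDC and BMDC without LPS (-0.03 ± 0.04, adjusted p = 0.627) and fell by 0.90 ± 0.05 in BMDC and 1.43 ± 0.05 in TolDC. The clamp loader genes Rfc2, Rfc3, Rfc4 and Rfc5 fell by 0.60 to 1.26 in TolDC. In BMDC, Rfc2, Rfc4 and Rfc5 fell by 0.51 to 0.90 and Rfc3 did not pass (-0.13 ± 0.07, 0.115). Rfc2 and Rfc5 were higher in TolDC without LPS (0.32 ± 0.05 and 0.54 ± 0.07), and with LPS the difference in Rfc2 passed with the replicate block but not without it (0.11 ± 0.05, adjusted p = 0.0595, with the block 0.0395). Over Rfc2 and Rfc5, 61.0% and 65.4% of the reads lay on the strands of Lat2 and Wsb2, and unstranded counts gave changes with LPS of -0.54 and -0.84 in BMDC and -0.72 and -1.12 in TolDC.

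Of the 5 genes of deoxynucleotide supply, Rrm1 and Rrm2 encode the large and small subunits of ribonucleotide reductase. Rrm1 was at 57.5, 67.03 and 64.2 CPM in BMDC, 25.3, 30.1 and 31.2 CPM in BMDC with LPS, 83.9, 80.7 and 76.3 CPM in TolDC and 19.6, 21.1 and 20.8 CPM in TolDC with LPS, without overlap between groups. It fell by 1.13 ± 0.07 in BMDC and 1.97 ± 0.07 in TolDC, and Rrm2 by 1.22 ± 0.16 and 3.15 ± 0.18. Per kilobase the 2 subunits were level in BMDC (ratio 1.05), BMDC with LPS (1.01) and TolDC (1.05), but in TolDC with LPS Rrm1 stood 2.17 times above Rrm2. Between TolDC and BMDC without LPS, Rrm2 differed by 0.36 ± 0.15, which did not pass in edgeR (adjusted p = 0.0609) and passed with the replicate block (0.00486).

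Tk1, thymidine kinase of the salvage pathway, had the largest fall of the 41 genes in TolDC. It was at 3.88, 5.67 and 6.03 CPM in BMDC, 1.13, 2.86 and 2.43 CPM in BMDC with LPS, 7.65, 8.37 and 8.35 CPM in TolDC and 0.783, 0.740 and 0.793 CPM in TolDC with LPS. The changes were -1.31 ± 0.24 in BMDC (edgeR adjusted p = 0.000197) and -3.39 ± 0.26 in TolDC (2.05e-08), or 2.43-fold and 10.5-fold by mean CPM, with a difference of -2.07 ± 0.37 (0.000408). Of the reads over Tk1, 66.3% lay on the opposite strand, where Afmid and Gm20708 are annotated. With unstranded counts the changes were -0.11 (adjusted p = 0.277) and -1.13 (2.65e-09), the difference -1.02 (3.99e-06), and the higher level in TolDC without LPS (0.65 ± 0.20, 0.0126) turned to -0.09 (0.401).

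Tyms and Dut encode the enzymes that make dTMP and its precursor dUMP. Tyms, thymidylate synthase, was at 14.8, 18.8 and 19.4 CPM in BMDC, 21.2, 21.8 and 23.8 CPM in BMDC with LPS, 19.7, 21.1 and 20.8 CPM in TolDC and 16.3, 16.8 and 17.9 CPM in TolDC with LPS. It rose with LPS in BMDC (0.34 ± 0.08, edgeR adjusted p = 0.00142; 0.22 without BMDC replicate 1) and fell in TolDC (-0.27 ± 0.08, 0.0071). Its higher level in TolDC without LPS (0.22 ± 0.08, 0.0293) was lost without BMDC replicate 1 (0.11, 0.205) and without TolDC replicate 2 (0.085) or 3 (0.0761), without the 4 libraries numbered 1 (0.14, 0.0841) and with DESeq2 (0.0666). Dut, dUTPase, was at 19.2, 22.5 and 23.4 CPM in BMDC, 4.05, 6.73 and 7.46 CPM in BMDC with LPS, 35.5, 37.8 and 33.6 CPM in TolDC and 16.1, 15.4 and 16.3 CPM in TolDC with LPS. It fell more in BMDC (-1.86 ± 0.16) than in TolDC (-1.16 ± 0.14), a difference of 0.70 ± 0.21 (adjusted p = 0.02) that was 0.45 (0.00487) without BMDC with LPS replicate 1 and did not pass without BMDC replicate 3 (0.0523). With LPS it stood 1.42 ± 0.16 above BMDC in TolDC (edgeR adjusted p = 1.18e-05). Dut was the only one of the 41 genes to be called at least 2-fold higher there. The share of all tested genes that were 2-fold higher there was not computed.

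**Figure D5:**
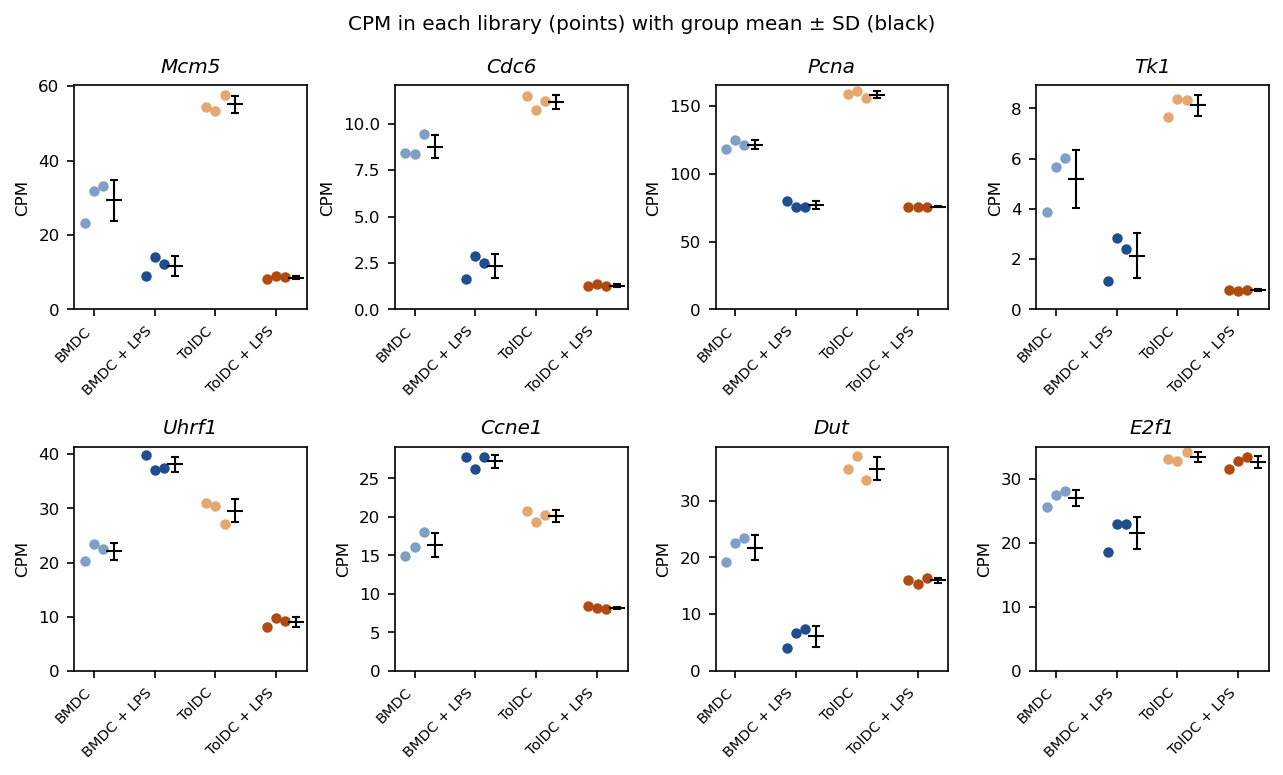
CPM in each library (y axis from zero, points; black, mean ± SD of 3) of 8 genes in the 4 groups (x axis). Mcm5, Cdc6, Pcna and Tk1 are highest in TolDC and fall with LPS in both kinds of cell, Uhrf1 and Ccne1 rise in BMDC and fall in TolDC, and Dut and E2f1 are lowest in BMDC with LPS.

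Cyclin E rose with LPS in BMDC and fell in TolDC. Ccne1, one of its 2 genes, was at 14.99, 16.1 and 18.1 CPM in BMDC, 27.8, 26.3 and 27.7 CPM in BMDC with LPS, 20.8, 19.3 and 20.2 CPM in TolDC and 8.39, 8.14 and 8.03 CPM in TolDC with LPS. The groups did not overlap, and the changes of 0.74 ± 0.07 and -1.30 ± 0.07 (edgeR adjusted p = 8.65e-09 and 5.93e-12) gave a difference of -2.03 ± 0.10 (1.61e-11). Ccne2 was at 11.7, 12.6 and 10.5 CPM in BMDC, 24.2, 18.8 and 19.2 CPM in BMDC with LPS, 7.62, 7.47 and 8.67 CPM in TolDC and 4.73, 4.54 and 4.51 CPM in TolDC with LPS. Its changes with LPS were 0.84 ± 0.10 and -0.79 ± 0.11 (adjusted p = 2.86e-07 and 4.91e-06). Unlike Ccne1 (0.30 ± 0.07, 0.000832), it was lower in TolDC than in BMDC without LPS (-0.55 ± 0.10, 0.000157). With LPS, Ccne2 was 4.52-fold and Ccne1 3.33-fold lower in TolDC by mean CPM. Over Ccne2, 26.4% of reads lay on the strand of Ints8, and the unstranded counts gave like changes (0.84 and -0.82).

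The E2F genes parted from each other. E2f1, an activator of S phase genes, was at 25.6, 27.4 and 28.1 CPM in BMDC, 18.6, 22.9 and 23.01 CPM in BMDC with LPS, 33.1, 32.8 and 34.2 CPM in TolDC and 31.6, 32.9 and 33.4 CPM in TolDC with LPS. Its change in TolDC did not pass (-0.03 ± 0.06, edgeR adjusted p = 0.65), the groups overlapping, while it fell in BMDC (-0.33 ± 0.07, 0.000253), a difference of 0.30 ± 0.09 (0.0145). E2f2, an activator like E2f1, was at 20.7, 22.04 and 22.9 CPM in BMDC, 4.36, 7.23 and 5.98 CPM in BMDC with LPS, 15.9, 18.8 and 16.5 CPM in TolDC and 2.15, 4.04 and 2.85 CPM in TolDC with LPS. It fell by 1.92 ± 0.18 in BMDC and 2.50 ± 0.19 in TolDC (edgeR adjusted p = 1.48e-06 and 2.41e-07). The difference between the responses of -0.59 ± 0.27 (0.104) and that between TolDC and BMDC without LPS of -0.36 ± 0.16 (0.072) did not pass, and both passed with the replicate block (0.00718 and 0.00132). In TolDC with LPS, E2f1 thus overlapped with its level without LPS, while E2f2 was below all 9 other libraries.

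Uhrf1, which brings the maintenance methyltransferase to newly copied DNA, had the largest difference between the responses of the 41 genes. It was at 20.3, 23.4 and 22.5 CPM in BMDC, 39.8, 37.2 and 37.5 CPM in BMDC with LPS, 31.1, 30.5 and 27.1 CPM in TolDC and 8.03, 9.82 and 9.19 CPM in TolDC with LPS. No groups overlapped, with changes of 0.79 ± 0.07 and -1.71 ± 0.08 (edgeR adjusted p = 7.61e-09 and 3.19e-13) and a difference of -2.50 ± 0.10 (3.06e-12). Chaf1a and Chaf1b encode the large and middle subunits of CAF-1, which places new histones. Chaf1b, with the smallest difference between the responses, was at 26.6, 26.03 and 24.7 CPM in BMDC, 20.6, 19.6 and 20.1 CPM in BMDC with LPS, 26.8, 24.2 and 24.6 CPM in TolDC and 19.6, 18.9 and 17.6 CPM in TolDC with LPS, changing by -0.36 ± 0.06 and -0.43 ± 0.06. Chaf1a fell by 0.80 ± 0.09 and 1.64 ± 0.09, so that per kilobase Chaf1b stood 3.48 times above Chaf1a in BMDC and 6.54 times above it in TolDC with LPS. Its higher level in TolDC without LPS (0.26 ± 0.09, adjusted p = 0.0129) was lost without BMDC replicate 1 (0.056) or 3 (0.0504) and without TolDC replicate 2 (0.0529).

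Across the 12 libraries the commonest order of group means was TolDC, BMDC, BMDC with LPS and TolDC with LPS, found for 22 of the 41 genes. The share of all tested genes with this order was not computed. All 3 TolDC with LPS libraries lay below the 9 others for 25 genes (12.9% of all tested genes), all 3 TolDC libraries lay above the 9 others for 24 (15.0%), and both held for 14 (1.50%). In likeness to the mean log2 level of the other genes over the 12 libraries, which share their groups, Mcm3 (Pearson r = 0.994), Chaf1a (0.993) and Rrm1 (0.993) came first. E2f1 (0.158), Ccne2 (0.186), Tyms (0.241), Pola2 (0.276) and Orc1 (0.291) came last, and r was above 0.5 for all others. The library numbered 1 was the lowest of its group for 30 of the 41 genes in BMDC, 29 in BMDC with LPS, 12 in TolDC and 23 in TolDC with LPS. The shares over all tested genes were not computed. In each group that library also had the lowest summed markers of granulocytes, of mast cells and basophils, and of T and NK cells. Its summed dendritic cell markers were the highest. The part of other cells in these levels was not tested. Without the 4 libraries numbered 1 the counts of lower genes with LPS were 34 in BMDC and 39 in TolDC, and 31 for the difference between the responses.

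Of 71 further genes of replication and of G1 and S phase control, 43 were lower and 12 higher with LPS in BMDC, 52 lower and 9 higher in TolDC, and 37 lower and 8 higher in the difference between the responses. Of all tested genes, 36.4% were lower and 36.7% higher in BMDC, 35.9% and 35.4% in TolDC, and 24.0% and 20.4% in the difference. The count of 8 was 5 without TolDC replicate 1. Clspn, the checkpoint mediator claspin, fell from 9.85 ± 1.20 to 2.05 ± 1.06 CPM (SD, n = 3) in BMDC and from 15.2 ± 1.10 to 1.11 ± 0.348 CPM in TolDC. Ticrr, needed to fire origins, Timeless, which protects forks, and Asf1b, a histone chaperone, changed by -1.55, -1.01 and -1.66 in BMDC and by -3.15, -2.86 and -2.77 in TolDC. Ccna2, the S phase cyclin A2, Cks1b, a partner of cyclin-dependent kinases, and Mybl2, a regulator of cell cycle genes, changed by -2.04, -1.89 and -0.83 in BMDC and by -3.81, -2.69 and -2.18 in TolDC.

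Cyclin D1 and inhibitors of cyclin-dependent kinases act upstream of cyclin E and E2F. Ccnd1, cyclin D1, was at 25.9, 26.8 and 26.99 CPM in BMDC, 3.03, 4.33 and 4.85 CPM in BMDC with LPS, 72.7, 70.9 and 68.5 CPM in TolDC and 6.69, 5.28 and 6.24 CPM in TolDC with LPS, and differed by 1.41 ± 0.08 between TolDC and BMDC without LPS (edgeR adjusted p = 1.01e-10) and by 0.60 ± 0.13 with it (0.00046; 0.34 without the 4 libraries numbered 1). Ccnd2, the most abundant D cyclin gene, went the other way in BMDC, from 476 ± 14.1 to 1282 ± 85.55 CPM with LPS (SD, n = 3). In TolDC it was lower with LPS, at 840 ± 40.4 and 655 ± 39.7 CPM. Of 7 inhibitor genes, 5 were lower in TolDC without LPS (30.4% of all tested genes) and 7 with it (33.7%). Both counts include the scarce Cdkn1c, at 0.292 to 0.689 CPM in BMDC and 0.0793 to 0.176 CPM in TolDC. With LPS it was at 0.28 to 0.494 CPM in BMDC and 0.0979 to 0.198 CPM in TolDC. In TolDC this was close to the level of 3 reads. Cdkn1a, the most abundant of the 7 genes, rose with LPS from 1574 ± 43.5 to 2220 ± 98.1 CPM in BMDC. In TolDC it rose from 1088 ± 14.5 to 1455 ± 34.8 CPM. Cdkn2a was at 12.1 ± 1.23 CPM in BMDC, 32.5 ± 2.15 CPM in BMDC with LPS, 1.38 ± 0.368 CPM in TolDC and 2.59 ± 0.236 CPM in TolDC with LPS (SD, n = 3). Cdkn2b rose with LPS in both kinds of cell, from 9.96 ± 0.257 to 54.6 ± 1.91 CPM in BMDC and from 2.73 ± 0.371 to 16.3 ± 1.15 CPM in TolDC. Cdkn1b rose too, by 0.89 ± 0.06 and 0.36 ± 0.06, whereas Cdkn2c fell by 0.55 ± 0.10 and 1.29 ± 0.10. All 7 inhibitor genes, scarce Cdkn1c included, and 27 of the 41 genes were thus lower in TolDC with LPS than in BMDC with LPS.

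Genes of mitosis, a later phase of the cycle, were lower with LPS as well. Of 20 such genes, 19 were lower with LPS in BMDC (36.4% of all tested genes) and 20 in TolDC (35.9%), with medians of -1.57 and -2.85. Cenpf, Kif20a, Bub1 and Kif11 fell by 1.66 to 2.20 in BMDC and by 3.36 to 3.99 in TolDC. The summed level of the 20 was 470.0 ± 33.1 CPM in BMDC, 243 ± 31.2 CPM in BMDC with LPS, 674 ± 6.95 CPM in TolDC and 220.0 ± 6.71 CPM in TolDC with LPS (SD, n = 3). None of the 20 was higher with LPS in BMDC, where 6 of the replication and G1/S genes and 36.7% of all tested genes were.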

How the data were processed

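Libraries made with a stranded mRNA kit, per the labels' protocols, were deposited by the authors as tables of read counts per gene, raw and in 3 columns by strand. Alignment with STAR to mm10 (GRCm38), trimming with cutadapt, and edgeR and limma are named in the submitters' processing notes, with versions and settings not given in the sources used here. Column 4, the strand of the kit, was used, and column 2, unstranded, was an alternative. Ensembl identifiers were paired with symbols through GENCODE M21 (31011 of 31054). Genes were filtered with filterByExpr over the 4 groups, scaled with TMM (factors 0.945 to 1.035) and fitted over all 12 libraries with edgeR 4.0.16 (robust quasi-likelihood, R 4.3.3), in 5 contrasts, with Benjamini-Hochberg adjustment over 13141 genes and a threshold of 0.05. Alternatives, 20 in all, were DESeq2 1.42.0 size factors and Wald test, limma-voom (3.58.1), no filter, unstranded counts, the compared groups alone, a replicate block, each library left out (12), and all 4 libraries numbered 1 left out. Scripts were tested on simulated data.

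The replicate numbers come from the sample titles. Deviations from group means of same-numbered libraries correlated above 0.1 for all 3 pairs in each comparison of 2 groups (0.131 to 0.466). Of all 18 such pairs, 1 was lower (0.0910). The numbers may thus mark pairs, but they entered only the alternative fit with the replicate block. The calls, SE and adjusted p-values of the main fit do not take them into account.

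The genes and the other lists were chosen with earlier results of these data known. Values in every library are given, within each of 8 roles, for the gene with the highest mean CPM and the gene with the largest change, for the 2 largest and 2 smallest differences between the responses, and for genes called against the direction of most. Of the other lists, up to 4 called genes with at least 5 CPM and the largest changes are named. Ccnd2 and Cdkn1a were added for their abundance.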

Additional observations from a re-analysis of the deposited data

Results flagged for a closer look

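The results in this section are genes whose LPS response differed between TolDC and BMDC by the test of the difference itself (edgeR quasi-likelihood test, adjusted p below 0.05). Values are log2 differences, the response in TolDC minus that in BMDC, with 3 libraries per group.

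Among the helicase ring genes the differences were -0.90 for Mcm2, -0.93 for Mcm3, -0.86 for Mcm4, -1.35 for Mcm5, -1.50 for Mcm6 and -1.40 for Mcm7. Of the licensing and activation genes, Orc1 differed by -2.10, Cdc6 by -1.20, Mcm10 by -1.09, Cdc45 by -0.66 and Gins2 by -0.71. For polymerases and primase the values were -0.45 (Pola1), -0.42 (Pola2), -0.52 (Prim1), -0.60 (Prim2), -0.67 (Pold1) and -1.41 (Pole). The clamp, loader and joining genes gave -0.41 (Pcna), -0.21 (Rfc2), -0.47 (Rfc3), -0.37 (Rfc5), -0.53 (Fen1) and -1.15 (Lig1). In deoxynucleotide supply Rrm1 differed by -0.84, Rrm2 by -1.94, Tk1 by -2.07 and Tyms by -0.61, whereas Dut differed by 0.70, a smaller fall in TolDC. Ccne1 differed by -2.03, Ccne2 by -1.63 and E2f1 by 0.30. Uhrf1 differed by -2.50 and Chaf1a by -0.84.

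Outside the 41 genes, Timeless differed by -1.86, Clspn by -1.44, Ticrr by -1.61 and Asf1b by -1.11. Ccnd1 differed by -0.81, Ccna2 by -1.77, Mybl2 by -1.35 and Cks1b by -0.81. Of the inhibitors, Cdkn1b differed by -0.53, Cdkn2a by -0.55 and Cdkn2c by -0.74. The mitosis genes Bub1, Kif11, Kif20a and Cenpf differed by -1.74, -1.53, -1.44 and -1.79.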

How the results depend on the processing

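The numbers of genes lower with LPS stayed within 1.5 times their values under all 20 alternatives in BMDC and in TolDC. Of the 41 genes, those lower in TolDC without LPS numbered 4, not 2, with only the 2 groups compared and also 4 without the 4 libraries numbered 1. When each library was left out in turn, the genes higher in TolDC with LPS numbered up to 5 in place of 3, those with a higher response in TolDC between 1 and 3 in place of 2, and the other replication and G1/S genes with a higher response in TolDC as few as 5 in place of 8. The sign of 1 called value turned, that of Tk1 in TolDC against BMDC without LPS, which was -0.0889 (edgeR adjusted p = 0.401) with unstranded counts; the cause was not tested. With the replicate block, calls were gained for Gins4, Rrm2 (0.36) and E2f2 (-0.36) in TolDC against BMDC without LPS, for Mcm5 and Rfc2 (0.10) with LPS, and for E2f2 (-0.59) in the difference between the responses. The block changed no other call among the 41 genes. Where single libraries changed a call, the cause was not tested. All 41 genes had at least 22 reads in every library, and Tk1 in TolDC with LPS, below 1 CPM, had the fewest.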
